A study of Heterocephalus glaber with 3 samples.

Results

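The genes described here are the collagens, laminins, ADAMTS proteases, fibrillins, fibulins, microfibril-associated proteins and lysyl oxidases that carried a symbol in the deposited feature list of naked mole-rat (Heterocephalus glaber) lung tumours. Members were taken by symbol alone, as every name of the form COL, LAM, ADAMTS, FBN, FBLN, MFAP or LOX with its chain or family number, which gave 60 of 23189 features. Of 91 symbols of these forms in the RefSeq gene table of the species, 31 had no match by symbol and were not analysed here, among them COL4A1, COL4A2, LAMA4, LAMA5, LOX, FBLN1 and ADAMTS5. Tumours came from the lungs of 3 animals, numbered 1 to 3, which form 1 group. All had been infected with a CRISPR adenovirus whose edits included loss of Rb and an inversion joining Eml4 and Alk, and all were taken 15 weeks later. Tumour tissue was cut away by hand from normal lung and captured with 10x Chromium 3' chemistry, so the cells can include normal lung that stayed with a tumour. Uninfected lung was not analysed here, and each library is 1 animal. The age of the animals is not given in the sources used here.

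Collagens are triple-helical proteins built from alpha chains: the fibrillar types give connective tissue its tensile strength, type IV forms the network of basement membranes, and type VI forms beaded filaments around cells. Laminins are alpha, beta and gamma chain heterotrimers that organise basement membranes, while fibrillins, fibulins and microfibril-associated glycoproteins build the elastic fibres on which lung recoil depends. Lysyl oxidases cross-link collagen and elastin, and the ADAMTS proteases trim procollagens, proteoglycans and microfibrils. Roles given below are those known from human and mouse.

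After filtering, 24599 cells remained and fell into 29 clusters, of which the stromal, epithelial and bone-type ones are described here (4062 cells). Libraries held 76093932, 86575320 and 91949365 UMIs (unique molecular identifiers, each counting 1 captured transcript), and members made up 0.337%, 0.229% and 0.193% of them in animals 1, 2 and 3. Clusters were made without the members and their partner genes, and levels are CPM, the UMIs of a gene per 1000000 UMIs of a class summed within an animal. Values in a row of 3 always stand for animals 1, 2 and 3. The 5 tested classes and their reference were IGF2/MMP3 cells (696, 329 and 556 cells), mural-like (30, 57 and 37), endothelial-like (53, 100 and 45), mesothelial-like (8, 34 and 119), epithelial-like (185, 119 and 300) and resident fibroblast-like cells (294, 352 and 333), the last called resident cells from here on. A bone matrix-like class had 201 cells in animal 2 and 6 each in the others. Classes with under 10 cells in an animal were left out for that animal, so mesothelial-like cells were compared in animals 2 and 3 alone. Few cell barcodes were shared between libraries (24, 21 and 31 per pair).

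Clusters and sub-clusters were named from their levels of the marker lists given here. A high sum of its own list in a class was thus set by the naming and is no check of the name. Details of the naming rule were fixed after the clusters had been seen. Resident markers, such as PDGFRA and TCF21, had 4514 to 5640.0 CPM in sum in resident cells, with 14 of 14 detected. Mural markers were detected 18 of 18 in mural-like cells (5226 to 11140.0 CPM, against 772 to 1058 CPM in resident cells), although these cells also carried 2347 to 5133 CPM of the IGF2 and MMP3 list, led by MMP3. Endothelial markers were detected 15 of 15 (4955 to 7907 CPM, against 32.8 to 57.3 CPM in resident cells). Mesothelial markers were detected 5 of 6, with CALB2 at 0 (3564 to 4319 CPM, against 985 to 2224 CPM in resident cells). Detection did not set these classes apart, since resident cells also had 15 of 15 endothelial and 6 of 6 mesothelial markers. IGF2/MMP3 and myeloid-like cells had 18 of 18 mural markers, and myeloid-like cells had 14 of 14 resident markers. The class called IGF2/MMP3 here was sought as a fibroblast state, and its markers went against that name in part. Resident markers had 316 to 395 CPM there, with TCF21 at 0. Basal epithelial markers had 650.2 to 900.2 CPM with 10 of 10 detected, against 74.6 to 129 CPM in resident cells. KRT5, DSG3, SERPINB5 and NGFR were at 0 in resident cells. Detection meant any UMI in the summed class, and IGF2/MMP3 cells held more UMIs in sum, so detection can follow depth. T or NK-like and myeloid-like cells also had 9 of 10 detected (45.2 to 81.8 and 87.7 to 146 CPM), and plasma-like cells 8. The difference thus rests on the summed level, of which KRT14 held a large part. The class is therefore called by 2 genes of the list it was sought with. That list had 897 to 2925 CPM in these cells, against 124 to 173 CPM in resident cells, and its range in mural-like cells reached higher, so the name is a label and not a mark of these cells alone. Its cells held a median of 17718 UMIs, against 5231 in resident cells.

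Members took their largest share of transcripts in the fibroblast-type and bone matrix-like cells. They made up 1.20%, 0.760% and 1.04% of all UMIs in IGF2/MMP3 cells, 0.573%, 0.402% and 0.531% in mural-like cells, 0.109%, 0.179% and 0.251% in endothelial-like cells and 0.144%, 0.136% and 0.155% in epithelial-like cells. Mesothelial-like cells stood at 0.334% and 0.347% in animals 2 and 3, and bone matrix-like cells at 1.31% in animal 2. Resident cells stood at 1.01%, 0.858% and 0.858%. Only animal 2 placed resident cells above IGF2/MMP3 cells. Immune cells were taken as a guide to the level that free RNA in the droplets can reach. Members made up 0.0388%, 0.0430% and 0.0294% in T or NK-like cells and 0.0160%, 0.0178% and 0.0117% in plasma-like cells. Some members were high there, with MFAP1 at up to 113 CPM and COL11A2 at up to 45.2 CPM. Whether immune cells transcribe them was not tested, so a member at or below the immune level need not be background. Each member was set against its highest value in either immune class in any animal. In IGF2/MMP3 cells 33 of 60 members stood above it in every animal. The number was 29 in mural-like, 21 in endothelial-like, 33 in mesothelial-like, 26 in epithelial-like and 43 in resident cells. ADAMTS19 had no UMI in any cell kept.

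**Figure D1:**
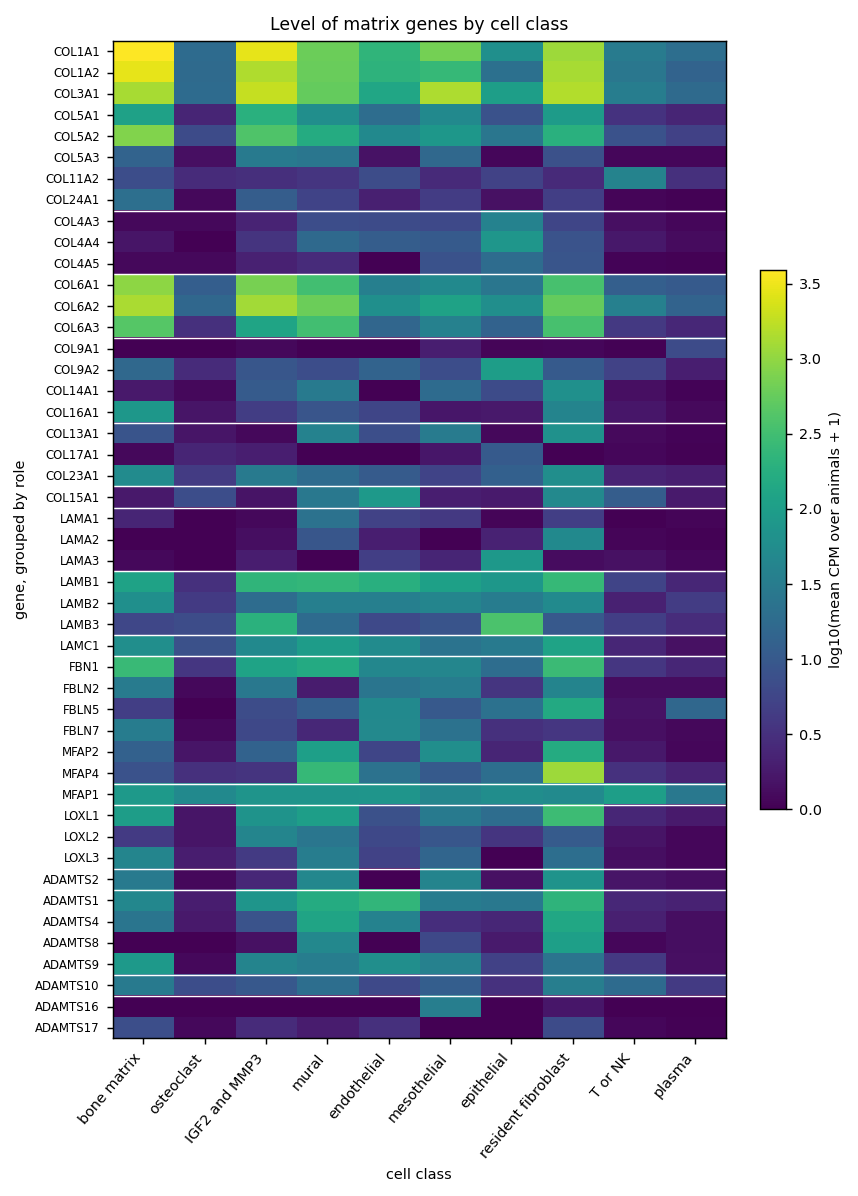
Level of members (rows, grouped by role; the sparsest are left out) in each cell class (columns), as colour on a log10 scale of mean CPM over animals plus 1. COL1A1, COL5A2 and COL6A2 are highest in the bone matrix-like and IGF2/MMP3 columns, MFAP4 is highest in resident cells, and LAMA3 and LAMB3 are highest in epithelial-like cells.

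Differences between classes were tested with edgeR's quasi-likelihood test on counts summed per animal and class, with the animal as a block and Benjamini-Hochberg adjustment over all features. Log2 fold changes are given ± a standard error worked back from the test, as their absolute value divided by the square root of the F statistic. An adjusted p under 0.05 counts as a call. All 5 tested comparisons set a class against the same resident cells, so a high or low resident level enters each of them. A member enters a test only if its counts pass a minimum, which a gene can do through the class where it is high, so counts of called members are descriptions. Overlap between classes was counted among called members alone, and not over all features. A call already favours separated values, so counts of members without overlap are descriptions too and add no support to the calls. With 1 library per animal, p-values rest on how alike the difference between classes is in 3 animals, or in 2 for mesothelial-like cells. The spread of each gene is moderated towards that of all features tested. With 2 animals little of that spread comes from the gene itself, so small p-values for mesothelial-like cells lean on the other features.

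IGF2/MMP3 cells and resident cells both carried large amounts of fibrillar collagen message, and differed in most members of the other families. Of the chains tested, 5 of 7 fibrillar and 2 of 3 type VI chains, LAMB3 and LOXL2 were higher in IGF2/MMP3 cells. Lower there were 5 of 6 fibrillins, fibulins and microfibril proteins, LAMA2, 2 of 3 fibril-associated and both transmembrane collagens and 6 of 7 ADAMTS genes. In all, 42 members were tested, 11 were higher and 26 lower, and 5 passed in neither direction, whereas 23.4% of the 11014 features tested were higher and 22.5% lower. The median log2 fold change of the 42 members was -1.53, beside -0.01 over all features. For 35 of the 37 called members the 2 classes did not overlap over the 3 animals, a share that was not counted over all features.

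Of 9 fibrillar collagen chains, 7 were tested and 5 were higher, with 2 not past the threshold. COL1A1, an alpha chain of type I collagen, had 3606, 1638 and 3442 CPM in IGF2/MMP3 cells, against 1472, 932 and 1057 CPM in resident cells (log2 fold change 1.15 ± 0.15, adjusted p = 5.11e-05). Every IGF2/MMP3 value lay above every resident value. In a joint fit over all classes the call was lost, at a log2 fold change of 1.12 and an adjusted p = 0.0726. COL1A2, the partner chain of COL1A1 in the type I trimer, had 2597, 717 and 1067 CPM in IGF2/MMP3 cells and 1686, 1143 and 1176 CPM in resident cells, a difference that missed the threshold (log2 fold change -0.19 ± 0.19, adjusted p = 0.452). Animal 1 was high in IGF2/MMP3 cells and animals 2 and 3 were low, so the classes overlapped. COL3A1, the type III chain of compliant tissues, also overlapped, with 2091, 1576 and 2093 CPM in IGF2/MMP3 cells and 1959, 1328 and 1181 CPM in resident cells (log2 fold change 0.26 ± 0.13, adjusted p = 0.132). The type V chains, which regulate fibril diameter, were higher in IGF2/MMP3 cells in all 3 animals. COL5A2 had 437, 352 and 406 CPM there, against 217, 188 and 170.3 CPM in resident cells (log2 fold change 0.93 ± 0.12, adjusted p = 4.3e-05), and COL5A1 differed by 0.90 and COL5A3 by 1.92 on the log2 scale. COL24A1, a minor fibrillar chain, differed by 1.39.

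The type VI chains did not move together. COL6A2 had 1279, 1065 and 1334 CPM in IGF2/MMP3 cells, against 566, 528 and 590.3 CPM in resident cells (log2 fold change 1.00 ± 0.11, adjusted p = 1.63e-05). COL6A1 gave 727, 762 and 639 CPM in IGF2/MMP3 cells and 377, 361 and 326 CPM in resident cells (log2 fold change 0.87 ± 0.11, adjusted p = 5.49e-05). COL6A3, the largest chain of the same heterotrimer, had 115, 149.5 and 110.3 CPM in IGF2/MMP3 cells, against 392, 372 and 296 CPM in resident cells (log2 fold change -1.63 ± 0.13, adjusted p = 6.97e-07). None of the 3 chains overlapped between the classes, and COL6A3 alone was lower.

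**Figure D2:**
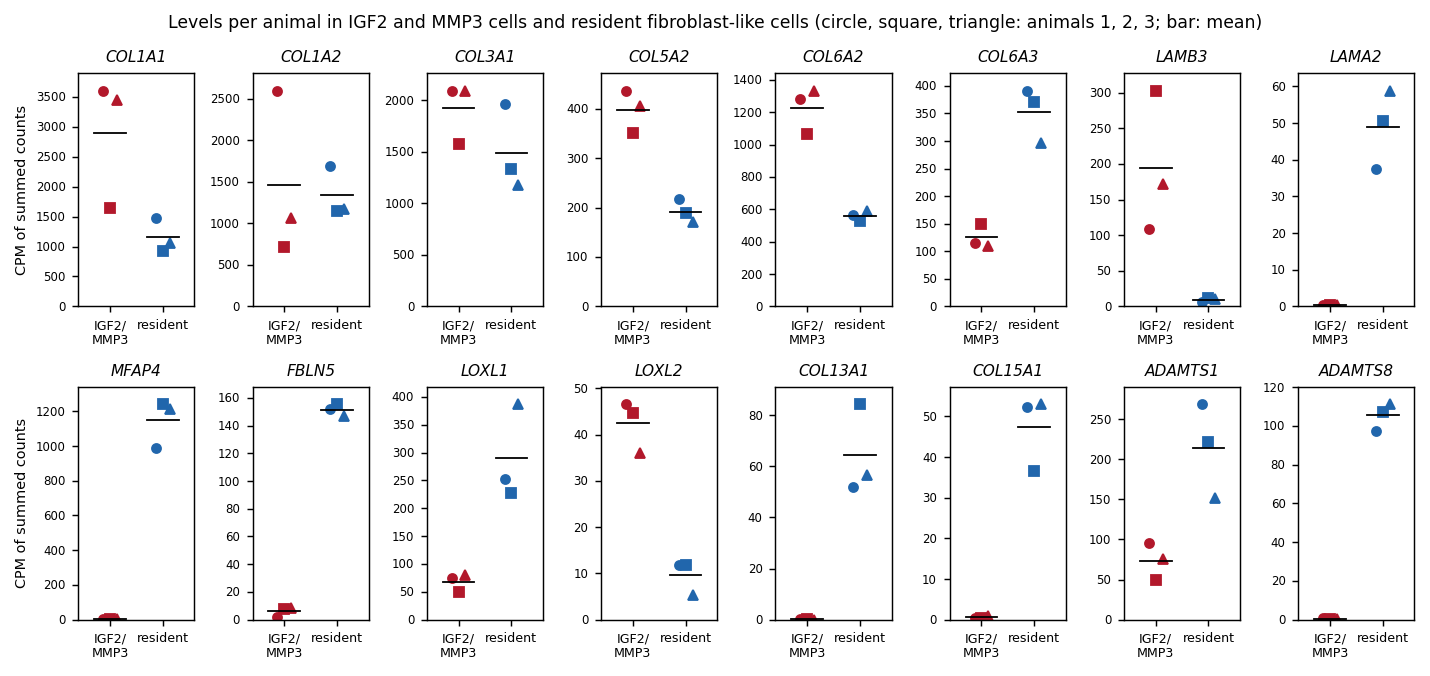
CPM of 16 members in IGF2/MMP3 cells (left) and resident cells (right). Each symbol is 1 animal (circle, square and triangle for animals 1, 2 and 3) and the bar is their mean. COL1A2 and COL3A1 overlap between the classes, MFAP4 stands at 1.88 to 2.99 CPM in IGF2/MMP3 cells against 987 CPM or more in resident cells, and LAMB3 and LOXL2 are higher in IGF2/MMP3 cells.

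Laminin chains went both ways, within the beta chains too. LAMB3, the beta chain of the epithelial laminin of hemidesmosomes, had 108, 303 and 172 CPM in IGF2/MMP3 cells, against 5.65, 11.7 and 9.99 CPM in resident cells (log2 fold change 4.27 ± 0.18, adjusted p = 3.55e-09). It was higher in each animal with no overlap, while LAMA3, the alpha chain of that laminin, had too few counts to be tested (0.690, 0.636 and 1.49 CPM in IGF2/MMP3 cells and 0, 0.469 and 0.526 CPM in resident cells). The summed basal epithelial list moved with LAMB3, at 650.2 to 900.2 CPM in IGF2/MMP3 cells against 74.6 to 129 CPM in resident cells. KRT14 held a large part of that sum: it ranged from 344 to 636 CPM, against 8.94 to 30.5 CPM in resident cells. The part of these markers in the result was not tested. T or NK-like cells had 4.05, 3.23 and 3.79 CPM of LAMB3, below every IGF2/MMP3 value. LAMA2, the alpha chain of muscle and stromal basement membranes, went the other way, with 0.377, 0.318 and 0.398 CPM in IGF2/MMP3 cells, against 37.5, 50.6 and 58.9 CPM in resident cells (log2 fold change -7.04 ± 0.25, adjusted p = 1.07e-09). LAMC1, the gamma chain shared by most laminins, was lower in IGF2/MMP3 cells at a log2 fold change of -1.42 and LAMB2 at -1.67. LAMB1 had 174, 264 and 222 CPM in IGF2/MMP3 cells, against 224, 299 and 237 CPM in resident cells, and although called (log2 fold change -0.34 ± 0.11, adjusted p = 0.0297) its classes overlapped. The 3 tested type IV chains, COL4A3, COL4A4 and COL4A5, were lower in IGF2/MMP3 cells (log2 fold changes -2.09, -1.89 and -2.83) at levels of at most 10.8 CPM in either class.

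MFAP4 had the largest difference of the tested members. MFAP4, a microfibril-associated glycoprotein that binds tropoelastin and fibrillin, had 1.88, 2.54 and 2.99 CPM in IGF2/MMP3 cells, against 987, 1243 and 1211 CPM in resident cells (log2 fold change -8.99 ± 0.17, adjusted p = 2.17e-11). FBLN5, the fibulin needed for elastic fibre assembly, had 2.01, 7.47 and 8.37 CPM in IGF2/MMP3 cells, against 152, 156 and 147 CPM in resident cells (log2 fold change -4.96 ± 0.30, adjusted p = 7.24e-08). MFAP2 had 10.9, 8.43 and 18.5 CPM in IGF2/MMP3 cells, against 149.9, 133 and 193 CPM in resident cells (log2 fold change -3.82 ± 0.14, adjusted p = 1.63e-09). All 3 genes were lower in every animal with wide gaps between the classes. FBN1, the main microfibril scaffold, had 106, 112 and 142 CPM in IGF2/MMP3 cells, against 262, 311 and 279.6 CPM in resident cells (log2 fold change -1.38 ± 0.12, adjusted p = 2.45e-06). FBLN2 was lower at a log2 fold change of -0.79 with overlapping animals, and FBLN7 missed the threshold, so 5 of the 6 tested members of this group were lower and none was higher. MFAP1, which shares the name but is a nuclear splicing factor, had 70.8, 70.9 and 72.4 CPM in IGF2/MMP3 cells and 59.6, 45.0 and 52.0 CPM in resident cells and was not called (log2 fold change 0.33 ± 0.13, adjusted p = 0.0623), though it was called without the count filter (0.41, adjusted p = 0.0227).

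Cross-linking enzymes changed in opposite directions. LOXL2, which cross-links type IV and fibrillar collagen, had 46.7, 44.7 and 36.1 CPM in IGF2/MMP3 cells, against 11.8, 11.7 and 5.26 CPM in resident cells (log2 fold change 2.04 ± 0.20, adjusted p = 5.16e-06). LOXL1, the lysyl oxidase of elastic fibres, had 74.7, 49.6 and 80.8 CPM in IGF2/MMP3 cells, against 253, 228 and 387 CPM in resident cells (log2 fold change -2.20 ± 0.14, adjusted p = 1.29e-07). LOXL3 was lower as well (log2 fold change -2.83). No animal of one class overlapped the other class for any of the 3 genes.

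Of 3 fibril-associated collagens tested 2 were lower in IGF2/MMP3 cells than in resident cells, and so were both tested transmembrane collagens. COL13A1, a transmembrane collagen of cell junctions, had 0.314, 0.318 and 0 CPM in IGF2/MMP3 cells (7 UMIs in all), against 51.9, 84.4 and 56.8 CPM in resident cells (log2 fold change -8.12 ± 0.32, adjusted p = 2.2e-09). COL15A1, a collagen that bridges basement membrane and interstitium, had 0.502, 0.318 and 0.797 CPM in IGF2/MMP3 cells, against 52.4, 36.6 and 53.1 CPM in resident cells (log2 fold change -6.54 ± 0.24, adjusted p = 1.38e-09). Both were near absent from IGF2/MMP3 cells and present in every resident sample. COL16A1 and COL14A1, which coat collagen fibrils, had log2 fold changes of -3.72 and -2.81. COL9A2 had 7.97, 9.70 and 6.38 CPM in IGF2/MMP3 cells and 12.8, 11.3 and 3.68 CPM in resident cells and was not called (log2 fold change -0.30 ± 0.28, adjusted p = 0.412). COL23A1, another transmembrane collagen, was lower at a log2 fold change of -1.31 on the log2 scale.

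Among ADAMTS proteases, 6 of the 7 tested were lower in IGF2/MMP3 cells. ADAMTS8, a weak aggrecanase of lung and heart, had 0.690, 0.159 and 0.498 CPM in IGF2/MMP3 cells, against 97.5, 107 and 111 CPM in resident cells (log2 fold change -7.73 ± 0.24, adjusted p = 3.04e-10). ADAMTS2, the procollagen N-proteinase, had 0.377, 2.54 and 1.69 CPM in IGF2/MMP3 cells, against 74.4, 47.4 and 87.3 CPM in resident cells (log2 fold change -5.90 ± 0.37, adjusted p = 1.21e-07). No animal of the IGF2/MMP3 class came near the resident levels of either protease. ADAMTS4, an aggrecanase, had 14.2, 4.13 and 3.19 CPM in IGF2/MMP3 cells, against 140.2, 153 and 121 CPM in resident cells (log2 fold change -4.46 ± 0.32, adjusted p = 3.35e-07), and without animal 1 the difference was -5.36. ADAMTS1, a versicanase, was lower at a log2 fold change of -1.67, ADAMTS10, which binds fibrillin microfibrils, at -2.07 and ADAMTS17 at -1.80. The 1 higher member was ADAMTS9, another versicanase, with 35.9, 41.0 and 43.9 CPM in IGF2/MMP3 cells, against 26.7, 23.4 and 18.9 CPM in resident cells (log2 fold change 0.68 ± 0.17, adjusted p = 0.00678).

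Genes that work with these proteins were taken from 6 lists, of which 50 genes were tested in this comparison, 13 higher and 27 lower. Among all 11014 features 23.4% were higher and 22.5% lower, so the higher share of partner genes was near that of all features. Of 13 collagen folding and modifying enzymes, 6 were higher and 3 lower. The collagen prolyl hydroxylase subunit P4HA2 had 187, 180.5 and 209.6 CPM in IGF2/MMP3 cells, against 85.2, 73.6 and 69.4 CPM in resident cells (log2 fold change 1.21 ± 0.13, adjusted p = 9.01e-06), P4HA1 differed by 0.92 and the collagen chaperone SERPINH1 by 0.90. All 6 elastic fibre partners were lower: MGP, the matrix Gla protein, had 81.3, 72.2 and 61.7 CPM in IGF2/MMP3 cells, against 8215, 5995 and 7409 CPM in resident cells (log2 fold change -6.77 ± 0.17, adjusted p = 6.72e-11), LTBP4 differed by -4.15 and EFEMP1 by -3.06. Of 15 proteoglycans and adhesive glycoproteins 12 were lower, among them ASPN (-5.16), POSTN (-4.78) and DCN (-4.33), and TNC and THBS2 were higher. Among 8 basement membrane partners 4 were higher and none lower, led by SMOC2 (3.42). Both procollagen-processing genes that were called, BMP1 and FAP, were lower. The metalloproteinase inhibitors TIMP3, which restrains ADAMTS proteases, and A2m were lower at log2 fold changes of -3.44 and -6.56, and TIMP2 was the 1 of 5 ADAMTS inhibitors and relatives that was higher (0.35).

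Because IGF2/MMP3 cells held more UMIs per cell, shares of cells with a UMI were also counted after each cell had been thinned to 3000 UMIs. Cells with fewer UMIs were left out (52, 65 and 19 IGF2/MMP3 cells and 43, 82 and 47 resident cells). COL1A1 was then found in 90.2, 70.5 and 88.3% of IGF2/MMP3 cells and 74.9, 68.2 and 74.1% of resident cells, and in 5.68, 6.71 and 8.80% of T or NK-like cells. MFAP4 was found in 0.621, 1.14 and 0.745% of IGF2/MMP3 cells and 75.3, 74.8 and 78.0% of resident cells, and LAMB3 in 15.8, 38.3 and 26.4% of IGF2/MMP3 cells and 1.59, 3.33 and 3.15% of resident cells. For LAMB3 the T or NK-like share was 0.676, 1.26 and 0.898% and the epithelial-like share 43.6, 44.7 and 46.1%. Before thinning, LAMB3 was found in 36.5, 54.1 and 47.8% of IGF2/MMP3 cells and 3.74, 5.68 and 5.11% of resident cells, MFAP4 in 3.88, 4.56 and 2.70% and 85.7, 84.4 and 86.5%, and COL1A1 in 93.1, 78.7 and 94.4% and 83.0, 74.7 and 78.7%. For MFAP4 the T or NK-like share after thinning was 0, 0.681 and 0.179%, below the IGF2/MMP3 share in each animal. Most T or NK-like cells were too shallow for thinning and were left out (1150 of 1890, 1261 of 2289 and 589 of 1146). MFAP4 was thus found in most resident cells and in few IGF2/MMP3 cells, at shares above those of T or NK-like cells. LAMB3 was found in part of the IGF2/MMP3 cells, and in fewer of them than of epithelial-like cells at matched depth.

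Within the IGF2/MMP3 class, sub-clusters differed in LAMB3 and type I collagen, and these levels are given without a test. LAMB3 had 257, 301 and 282 CPM in the sub-cluster led by SFTPC and IL11 (59, 10 and 266 cells). It had 232, 364 and 135 CPM in the one led by PLA2G2D and SPP1 (84, 210 and 21 cells). It had 19.8, 10.7 and 14.2 CPM in the sub-cluster led by PDZRN4 and LGI2. The sub-cluster led by S100G and IGFBP2 had 3.59 and 6.06 CPM in animals 1 and 3 (65 and 17 cells). LAMB3 was thus high in the first pair of sub-clusters and low in the second pair in each animal measured. Genes leading the SFTPC and IL11 sub-cluster included SFTPC and SCGB3A2 of the epithelial marker lists and IGKC of the plasma list. The part of epithelial message in its LAMB3 level was not tested. COL1A1 had 5409.9 and 3926 CPM in animals 1 and 3 in the sub-cluster led by IFIT3 and MMP3 (260 and 11 cells). It had 2181, 1949 and 4817 CPM in the PDZRN4 and LGI2 one (58, 23 and 131 cells). The higher of these 2 sub-clusters thus differed between animals 1 and 3, with 1 value resting on 11 cells. In the sub-cluster led by MYL7 and NPPA COL1A1 had 2001, 219.5 and 1415 CPM, with animal 2 far below the others. Its cells were shallow, with a median of 3499 UMIs, against 15438 to 28216 in the other sub-clusters of the class. ADAMTS9 was at 105, 105 and 70.4 CPM in the PDZRN4 and LGI2 sub-cluster, against 9.11, 0 and 11.3 CPM in the MYL7 and NPPA one. The cycling sub-cluster led by TOP2A kept COL1A1 at 2949, 1132 and 4153 CPM and LAMB3 at 135, 283 and 190.0 CPM.

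Resident cells held 5 sub-clusters. The sub-cluster led by MOXD1 and INMT had the most MFAP4, at 2933, 3211 and 3004 CPM, where the one led by SFRP4 and CCL11 had 373, 327 and 370.1 CPM. COL1A1 had the reverse order, with 349, 329 and 368 CPM in the MOXD1 and INMT sub-cluster and 2368, 2052 and 1891 CPM in the SFRP4 and CCL11 one. No animal broke either order. The sub-cluster led by CLEC3B and ASPN had the highest levels of COL14A1 (211, 157 and 225 CPM), COL15A1 (158, 125 and 189 CPM), LAMA2 (93.1, 213 and 192 CPM) and FBN1 (394, 681 and 565 CPM). FBLN5 was high in both the CLEC3B and ASPN sub-cluster, with 416, 467 and 255 CPM, and the MOXD1 and INMT one, with 444, 380.2 and 368 CPM, against 59.2, 78.5 and 90.5 CPM in the SFRP4 and CCL11 one. ADAMTS8 was highest beside type I collagen in the SFRP4 and CCL11 sub-cluster, at 152, 176 and 221 CPM, and ADAMTS4 was at 149.8, 201 and 157 CPM there, against 37.2, 36.2 and 22.0 CPM in the CLEC3B and ASPN one. MFAP2 was at 293, 208 and 241 CPM in the sub-cluster led by CCK and MMP11 (29, 12 and 166 cells) and 292, 165 and 266 CPM in the CLEC3B and ASPN one.

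**Figure D3:**
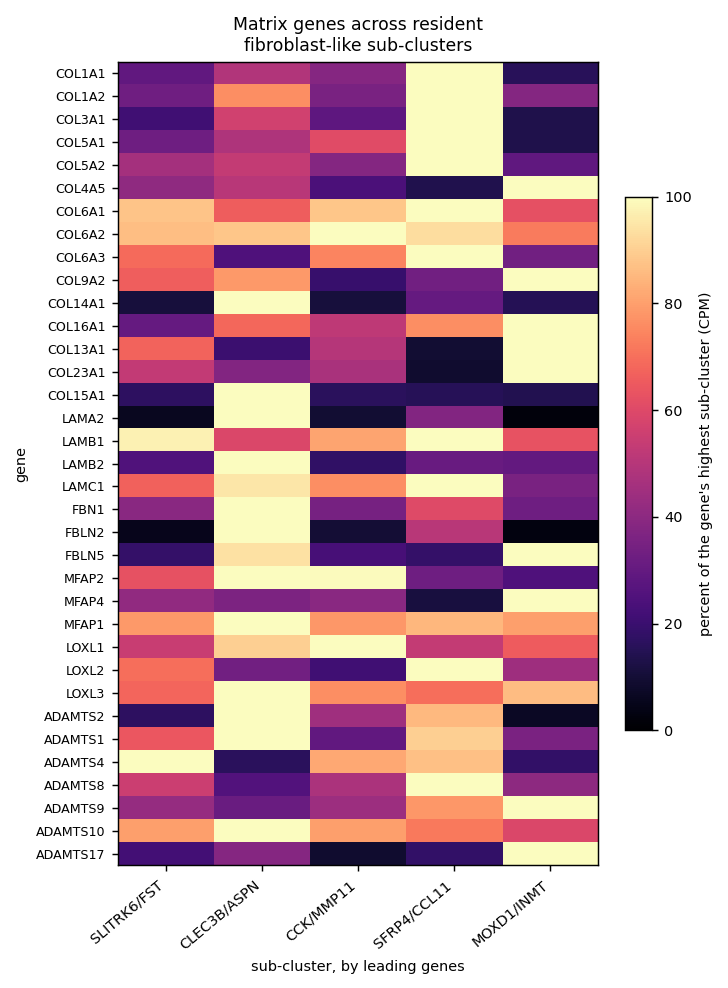
Level of members in the 5 sub-clusters of resident cells, as a percentage of the gene's highest sub-cluster (colour), with genes in rows and sub-clusters, named by 2 leading genes, in columns. COL14A1, COL15A1, LAMA2 and FBN1 peak in the CLEC3B and ASPN column, MFAP4 in the MOXD1 and INMT column and COL1A1 in the SFRP4 and CCL11 column.

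Mural-like cells, the contractile cells of vessel walls, had lower levels of 4 of 5 tested elastic-fibre genes and 3 of 6 tested fibrillar collagens than resident cells, while COL5A3 was higher. From 124 cells, 37 members were tested, of which 2 were higher, 12 lower and 23 passed in neither direction. Over all 7771 features 2.61% were higher and 3.59% lower, and the members' median log2 fold change was -0.65, beside -0.01 for all features. All 14 called members had no overlap between the classes. LAMA1, a laminin alpha chain, had 10.1, 21.2 and 32.5 CPM in mural-like cells, against 1.54, 6.10 and 3.15 CPM in resident cells (log2 fold change 2.39 ± 0.54, adjusted p = 0.0122), from 17 and 22 UMIs. COL5A3 had 20.3, 13.3 and 41.7 CPM in mural-like cells, against 7.19, 5.63 and 7.36 CPM in resident cells (log2 fold change 1.75 ± 0.47, adjusted p = 0.0397). Neither call was firm, since LAMA1 lost it without animal 3 (adjusted p = 0.222) and COL5A3 without any 1 animal (adjusted p from 0.0639 to 0.463).

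The 3 tested type VI chains and the 3 laminin beta chains were among those not called in mural-like cells. COL6A2 had 618, 454 and 769.9 CPM there and 566, 528 and 590.3 CPM in resident cells, and LAMB1 had 228, 239 and 250.5 CPM and 224, 299 and 237 CPM. Of 6 fibrillar chains 3 were lower: COL3A1 had 664, 353 and 668 CPM in mural-like cells, against 1959, 1328 and 1181 CPM in resident cells (log2 fold change -1.49 ± 0.20, adjusted p = 0.000149), and COL1A2 differed by -1.34 and COL1A1 by -1.09. Both type I calls were lost in the fit without the animal block (adjusted p = 0.0837 for COL1A2 and 0.184 for COL1A1). Elastic-fibre genes were lower too, with MFAP4 at 208, 369 and 186 CPM in mural-like cells, against 987, 1243 and 1211 CPM in resident cells (log2 fold change -2.24 ± 0.22, adjusted p = 8.42e-06), and FBLN5 at 15.2, 7.96 and 9.28 CPM against 152, 156 and 147 CPM (log2 fold change -3.93 ± 0.32, adjusted p = 1.88e-06). FBLN2 had 1 UMI in mural-like cells, and its resident level was higher by a ratio of 31.6 (counting interval 5.61 to 1251). LOXL1, LAMA2, COL16A1, ADAMTS8, COL23A1 and FBN1 were also lower, at -1.50, -2.72, -2.31, -1.25, -1.64 and -0.91 on the log2 scale. At a finer clustering only 11, 16 and 8 cells kept the mural name, animal 3 then dropped out, and 1 member was called. Of 44 partner genes tested 3 were higher, namely the basement membrane genes NTN4 (3.51) and NID2 (1.34) and ADAMTSL2 (4.27), and 11 were lower. Among all 7771 features tested 2.61% were higher and 3.59% lower.

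Endothelial-like cells carried little fibrillar or type VI collagen and more FBLN7, ADAMTS9 and COL15A1. Of 36 members tested 3 were higher, 25 lower and 8 passed in neither direction, where 11.6% of the 8499 features were higher and 13.7% lower. The members' median log2 fold change was -2.61, beside -0.02 over all features, and 27 of the 28 called members did not overlap. FBLN7, a small fibulin, had 58.5, 48.8 and 34.8 CPM in endothelial-like cells, against 3.59, 1.41 and 3.15 CPM in resident cells (log2 fold change 3.86 ± 0.40, adjusted p = 2.43e-05). ADAMTS9 had 58.5, 41.2 and 75.8 CPM in endothelial-like cells, against 26.7, 23.4 and 18.9 CPM in resident cells (log2 fold change 1.01 ± 0.28, adjusted p = 0.0196), a call lost without animal 1 (adjusted p = 0.0664) or animal 3 (adjusted p = 0.135). COL15A1 had 80.1, 73.2 and 111 CPM in endothelial-like cells, against 52.4, 36.6 and 53.1 CPM in resident cells (log2 fold change 0.63 ± 0.20, adjusted p = 0.0402), but it was lost without any 1 animal (adjusted p from 0.0654 to 0.194) and in the fit without the animal block (adjusted p = 0.209), and stood at -0.35 in thinned cells.

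The 2 endothelial-like clusters divided these genes. COL15A1 had 151, 93.2 and 179.6 CPM in the cluster led by FCN3 and RAMP2 and no UMI in any animal in the cluster led by MMRN1 and STAB1. ADAMTS9 had 104, 52.4 and 118 CPM in the FCN3 and RAMP2 cluster and 6.58, 0 and 8.22 CPM in the MMRN1 and STAB1 cluster, and ADAMTS1 had 469, 266 and 179.6 CPM and 145, 149 and 49.3 CPM. FBLN7 had the reverse order, with 17.4, 17.5 and 10.3 CPM in the FCN3 and RAMP2 cluster and 105, 164 and 74.0 CPM in the MMRN1 and STAB1 cluster. Each order held in all 3 animals. Plasma cell markers stood at 2791 to 39980.0 CPM in endothelial-like cells, against 2849 to 2960.0 CPM in resident cells, and their part in these results was not tested.

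Among the lower members, COL3A1 had 33.9, 107 and 262 CPM in endothelial-like cells, against 1959, 1328 and 1181 CPM in resident cells (log2 fold change -3.88 ± 0.45, adjusted p = 5.88e-05), and COL1A1 had 15.4, 80.8 and 578 CPM against 1472, 932 and 1057 CPM (log2 fold change -3.31 ± 0.65, adjusted p = 0.00266). Animal 3 was far above the other 2 in endothelial-like cells, mostly through the MMRN1 and STAB1 cluster, where COL1A1 stood at 19.7, 42.7 and 1464 CPM. Without animal 3 the differences were -4.72 for COL3A1 and -4.73 for COL1A1, and without animal 1 -3.21 and -2.40. Type VI chains differed by -3.58 to -4.74, LOXL1 by -5.43, MFAP2 by -5.53 and MFAP4 by -5.90 on the log2 scale. COL14A1, ADAMTS2 and ADAMTS8 had no UMI in endothelial-like cells, which puts them at least 26.9-fold, 29.8-fold and 45.6-fold lower than in resident cells at a floor of 3 UMIs over the group. LAMA2 had 2 UMIs and was lower by a ratio of 31.8 (counting interval 8.71 to 263). LAMB1 had 154, 239.5 and 161 CPM in endothelial-like cells and 224, 299 and 237 CPM in resident cells, lower at a log2 fold change of -0.73 with overlap, and ADAMTS1 had 317, 241 and 129.6 CPM and 269, 222 and 151 CPM and was not called. Of 45 partner genes 4 were higher, the basement membrane genes NTN4 (2.47), NID2 (1.01) and SPARC (0.68) and ADAMTSL2 (4.17), and 31 lower. Among all 8499 features tested 11.6% were higher and 13.7% lower.

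Mesothelial-like cells, which line the pleura, had lower COL1A2, type VI and elastic-fibre levels than resident cells, while COL1A1 and COL3A1 were not called. Of 39 members tested in animals 2 and 3, 4 were higher, 22 lower and 13 passed in neither direction, where 8.9% of the 9075 features were higher and 9.66% lower. The members' median log2 fold change was -1.04, beside 0.00 over all features, and all 26 called members had no overlap in these 2 animals. ADAMTS16 had 37.6 and 28.8 CPM in mesothelial-like cells, against 0.469 and 0 CPM in resident cells, or 62 UMIs against 1, a ratio of 125 (counting interval 21.7 to 5029). Of the 72 ADAMTS16 UMIs in all cells kept, the class thus held most. FBLN7 had 17.8 and 25.5 CPM in mesothelial-like cells, against 1.41 and 3.15 CPM in resident cells (log2 fold change 3.38 ± 0.52, adjusted p = 5.25e-06). COL5A3 (1.47) and ADAMTS9 (1.04) were called higher, but neither was called by DESeq2 (adjusted p = 0.913 and 0.715) or without the animal block (adjusted p = 0.122 and 0.108).

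COL3A1 had 1655 and 1160.0 CPM in mesothelial-like cells and 1328 and 1181 CPM in resident cells of animals 2 and 3 (log2 fold change 0.35 ± 0.15, adjusted p = 0.105), and COL1A1 had 566 and 808 CPM and 932 and 1057 CPM (log2 fold change -0.35 ± 0.15, adjusted p = 0.129). Neither was called, although both COL1A1 values lay below the resident ones. COL1A2, the other type I chain, had 190.1 and 317 CPM in mesothelial-like cells, against 1143 and 1176 CPM in resident cells (log2 fold change -2.01 ± 0.17, adjusted p = 3.23e-11). Type VI chains were lower at a log2 fold change of -2.07 to -2.78, LOXL1 at -3.19, MFAP4 at -6.66 and FBLN5 at -3.92. LAMA2 had no UMI and was at least 36.3-fold lower. ADAMTS4 (2 UMIs), COL15A1 (1 UMI) and COL16A1 (2 UMIs) were lower by ratios of 138 (counting interval 37.9 to 1138), 88.6 (counting interval 15.7 to 3517) and 44.8 (counting interval 12.2 to 372). ADAMTS10 and COL13A1, lower at a log2 fold change of -1.42 and -0.85, lost their calls without the animal block (adjusted p = 0.072 and 0.175). Resident cells of these animals carried mesothelial markers themselves, as given above. Among 46 partner genes 5 were higher, including TIMP3 at 329 and 409.8 CPM in mesothelial-like cells against 91.5 and 121 CPM in resident cells (log2 fold change 2.00 ± 0.18, adjusted p = 8.97e-11), TIMP1 (1.11) and NTN4 (3.18), and 25 were lower. Among all 9075 features tested 8.9% were higher and 9.66% lower.

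Epithelial-like cells combined LAMA3 and LAMB3 of the hemidesmosomal laminin with type IV chains and COL9A2, and had lower levels of nearly every other member. Of 40 members tested 7 were higher and 32 lower, and MFAP1 alone was not called, where 22.9% of the 9868 features were higher and 21.2% lower. The members' median log2 fold change was -3.89, beside 0.01 over all features, and 38 of the 39 called members did not overlap. LAMA3 had 82.0, 34.6 and 128 CPM in epithelial-like cells, against 0, 0.469 and 0.526 CPM in resident cells, or 607 UMIs against 2, a ratio of 293 (counting interval 80.9 to 2429). LAMB3 had 336, 234 and 548 CPM in epithelial-like cells, against 5.65, 11.7 and 9.99 CPM in resident cells (log2 fold change 5.15 ± 0.28, adjusted p = 5.27e-07). In both genes animal 3 was highest and animal 2 lowest in epithelial-like cells, and every epithelial value exceeded every resident one. COL9A2, a fibril-associated chain best known from cartilage, had 106, 123 and 68.9 CPM in epithelial-like cells, against 12.8, 11.3 and 3.68 CPM in resident cells (log2 fold change 3.33 ± 0.22, adjusted p = 1.81e-06).

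The type IV chains COL4A3, COL4A4 and COL4A5, which form the specialised network of alveolar and glomerular basement membranes, were all called higher. COL4A4 had 43.3, 160.3 and 24.1 CPM in epithelial-like cells, against 7.70, 6.10 and 8.41 CPM in resident cells (log2 fold change 2.98 ± 0.47, adjusted p = 0.000604), and COL4A3 had 13.4, 93.0 and 8.96 CPM against 4.62, 4.69 and 4.73 CPM (log2 fold change 2.57 ± 0.55, adjusted p = 0.00403). Animal 2, which had the most alveolar type 1-like cells (61, against 30 and 9 in animals 1 and 3), was highest for both, and without it the differences were 1.89 and 1.09. COL4A5 gave overlapping values of 14.4, 29.7 and 8.03 CPM in epithelial-like cells, against 9.24, 10.8 and 3.15 CPM in resident cells (log2 fold change 1.02 ± 0.29, adjusted p = 0.0187), and was lost without animal 2 or 3 (adjusted p = 0.138 and 0.0636), by DESeq2 (adjusted p = 0.141) and without the animal block (adjusted p = 0.198).

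Epithelial types differed in which of these chains they carried, given here only for animals with at least 10 cells of the type. In animals 1 and 2, alveolar type 1-like cells had 102 and 185 CPM of COL4A3 and 310.1 and 322 CPM of COL4A4, against 0 and 47.1 CPM and 44.7 and 66.0 CPM in alveolar type 2-like cells. They also had 375 and 185 CPM of COL9A2. Basal-like cells of animals 1 and 3 had 272 and 304 CPM of LAMA3 and 867 and 1326 CPM of LAMB3. COL17A1, the transmembrane collagen that anchors epithelium to this laminin, reached 48.0 and 61.1 CPM there and was too sparse to be tested in the pooled epithelial class. LAMB3 was low in alveolar type 2-like cells, at 101, 66.0 and 97.9 CPM, and in ciliated cells, at 82.2, 104 and 59.4 CPM. COL1A1 stood at 571 CPM in the alveolar type 1-like cells of animal 1 and 36.2 CPM in those of animal 2.

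**Figure D4:**
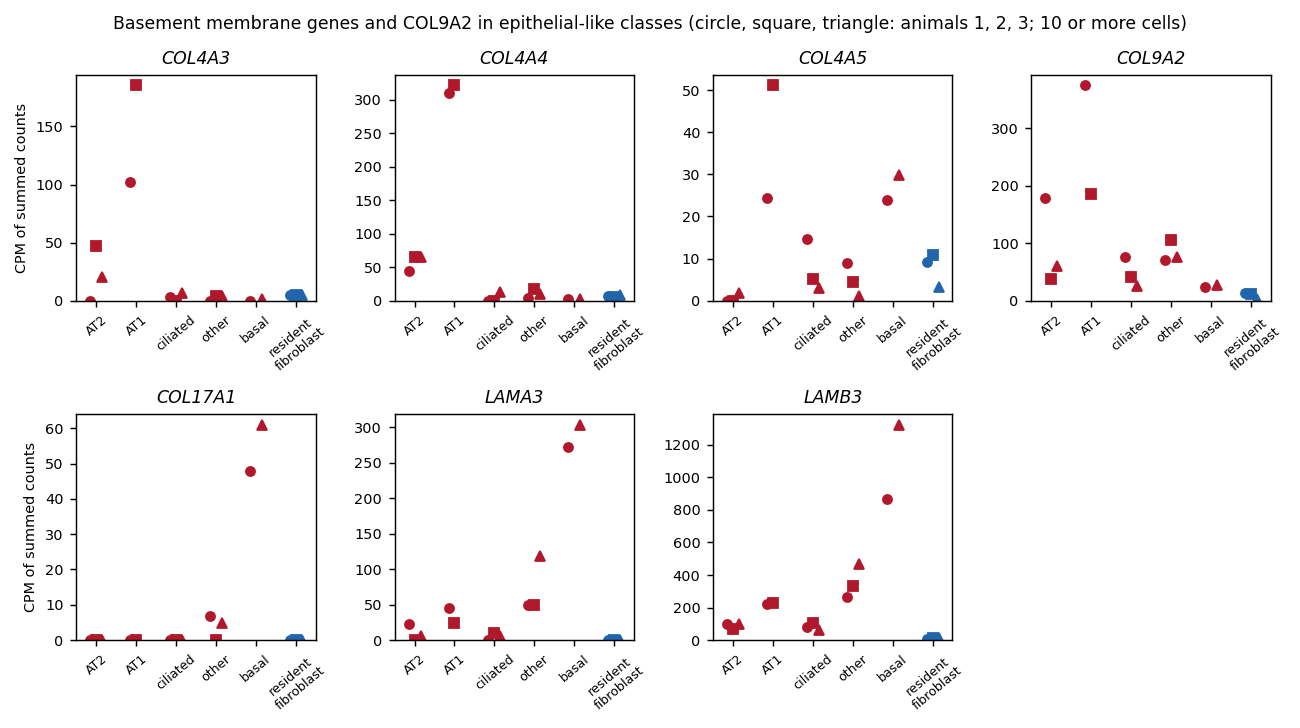
CPM of 7 members in 5 epithelial types and, at the right, resident cells. Each symbol is 1 animal with at least 10 cells of the type. COL4A3 and COL4A4 are highest in alveolar type 1-like cells and LAMA3, LAMB3 and COL17A1 in basal-like cells.

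Interstitial members fell steeply in epithelial-like cells. COL1A2 had 26.3, 18.8 and 15.1 CPM in epithelial-like cells, against 1686, 1143 and 1176 CPM in resident cells (log2 fold change -6.21 ± 0.16, adjusted p = 2e-08), MFAP4 had 13.4, 24.7 and 18.2 CPM against 987, 1243 and 1211 CPM (log2 fold change -6.10 ± 0.17, adjusted p = 2.37e-08) and MFAP2 had 1.55, 0.990 and 1.54 CPM against 149.9, 133 and 193 CPM (log2 fold change -6.94 ± 0.24, adjusted p = 4.37e-08). LOXL3 had no UMI in epithelial-like cells and was at least 39.0-fold lower. COL13A1 (2 UMIs), ADAMTS2 (2 UMIs) and COL5A3 (1 UMI) were lower by ratios of 201 (counting interval 55.3 to 1667), 213 (counting interval 58.6 to 1765) and 41.4 (counting interval 7.01 to 1674). ADAMTS8, ADAMTS4, COL15A1 and COL16A1 differed by -7.05, -6.72, -5.98 and -5.94 on the log2 scale. Of 48 partner genes 1 was higher, NTN4, a laminin-related netrin, with 48.0, 98.0 and 39.9 CPM in epithelial-like cells against 5.65, 7.97 and 3.15 CPM in resident cells (log2 fold change 3.33 ± 0.22, adjusted p = 2.24e-06), and 42 were lower. Among all 9868 features tested 22.9% were higher and 21.2% lower.

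**Figure D5:**
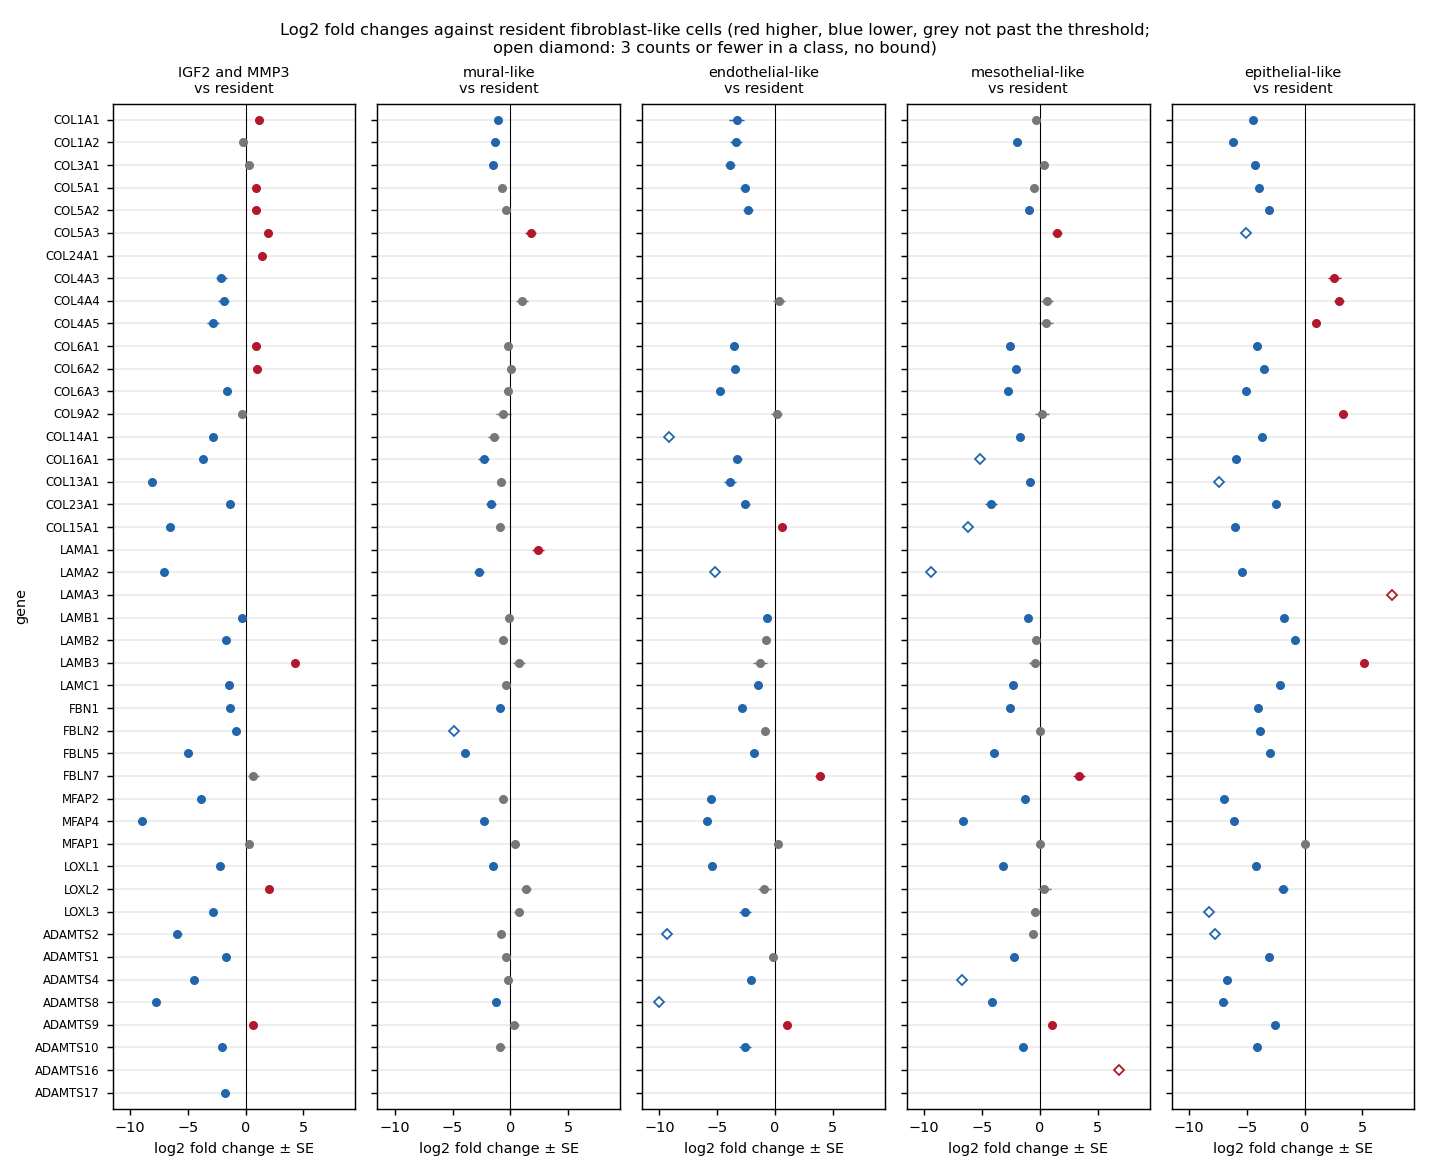
Log2 fold change ± SE of tested members in IGF2/MMP3, mural-like, endothelial-like, mesothelial-like and epithelial-like cells against resident cells, 1 panel per class. Red is higher and blue lower at an adjusted p under 0.05, grey is not past the threshold, and open diamonds mark genes with 3 or fewer UMIs in a class, whose fitted value is no bound. MFAP4, LOXL1, LAMA2 and FBN1 are lower in all 5 panels.

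Read across the 5 comparisons, which share their resident samples, MFAP4, LOXL1, LAMA2, FBN1, FBLN5, COL16A1, COL23A1 and ADAMTS8 were lower in each class. No member was higher in all 5. LAMB3 differed from resident cells by 4.27 in IGF2/MMP3 cells, 0.74 in mural-like, -1.29 in endothelial-like, -0.43 in mesothelial-like and 5.15 in epithelial-like cells, of which the first and last were called. COL1A1 differed by 1.15, -1.09, -3.31, -0.35 and -4.46 in the same order, with the mesothelial-like value alone not called. Among partner genes NTN4 was higher in all 5 classes.

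Bone matrix-like cells, led by SPP1, DMP1, IBSP and PTH1R, were compared with IGF2/MMP3 cells in animal 2, the only animal with enough of both, so these are values of 1 animal with no replicate check. Of the 329 IGF2/MMP3 cells of that animal, 210 lay in the sub-cluster led by PLA2G2D and SPP1. Of all marker lists, the bone matrix list stood highest in that sub-cluster relative to the rest of its cluster. The reference can thus carry bone-type message itself, and its part in the folds was not tested. Intervals are exact Poisson 95% intervals and cover counting error only. Of 42 members with at least 10 UMIs in either class, 8 were at least 4-fold higher, 6 at least 4-fold lower and 28 within 4-fold, where 2.89% of 12035 features were higher and 3.58% lower by that measure. COL1A1, a chain of the main collagen of bone, stood at 3913 CPM (interval 3859 to 3967) in the bone matrix-like cells and 1638 CPM (1607 to 1670.0) in the IGF2/MMP3 cells, and COL1A2 at 2864 CPM (interval 2818 to 2910.0) in the bone matrix-like cells and 717 CPM (696 to 738) in the IGF2/MMP3 cells. COL16A1 had 79.4 CPM (interval 71.9 to 87.5) in the bone matrix-like cells and 4.77 CPM (3.22 to 6.81) in the IGF2/MMP3 cells, a 16.6-fold difference. COL13A1 had 7.71 CPM (interval 5.51 to 10.5) in the bone matrix-like cells and 0.318 CPM (0.0385 to 1.15) in the IGF2/MMP3 cells, from 40 and 2 UMIs. Folds were, for ADAMTS2, 11.1-fold, LOXL3 7.66-fold, ADAMTS4 5.69-fold, ADAMTS6 5.33-fold, and FBLN7 4.52-fold, and ADAMTS17 had 6.36 CPM in bone matrix-like cells and 1.59 CPM in IGF2/MMP3 cells. ADAMTS2, the enzyme that trims type I procollagen, thus stood at 28.1 CPM in bone matrix-like cells and 2.54 CPM in IGF2/MMP3 cells.

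Among the 6 lower members were LAMB3 and LOXL2, which were higher in IGF2/MMP3 than in resident cells. LAMB3 had 4.82 CPM (interval 3.12 to 7.11) in the bone matrix-like cells and 303 CPM (289.8 to 317) in the IGF2/MMP3 cells, 62.9-fold lower in bone matrix-like cells. LOXL2 had 3.08 CPM in bone matrix-like cells and 44.7 CPM in IGF2/MMP3 cells, 14.5-fold lower, and COL14A1 was 10.3-fold lower. COL4A4 had 3 UMIs and COL4A3 1 UMI in bone matrix-like cells, against 29 and 15 in IGF2/MMP3 cells. A finer clustering left 16, 205 and 10 bone matrix-like cells in animals 1, 2 and 3, which allowed a test with edgeR's quasi-likelihood method over 3 animals, of which 2 rest on these few cells. It also left fewer IGF2/MMP3 cells, at 518, 137 and 471, against 696, 329 and 556 in the main clustering. Of 35 members then tested 8 were higher and 3 lower, where 1.7% of 10624 features were higher and 3.61% lower. LAMB3 (log2 fold change -6.21 ± 0.44, adjusted p = 1.09e-06), LOXL2 (-4.34) and COL14A1 (-3.87) were lower. LOXL3 (3.50), COL16A1 (3.14), FBLN7 (2.40), ADAMTS4 (1.78), COL23A1 (1.61), COL6A3 (1.55), ADAMTS9 (1.29) and LOXL1 (1.01) were higher. COL1A1 (-0.24 ± 0.40, adjusted p = 0.893) and COL1A2 (-0.30) were not called in that test. Osteoclast-like cells of animal 2 (192 cells), which resorb bone, held members at 0.0188% of UMIs, and 8 of 60 members stood above the immune level.

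The remaining members were sparse. COL4A6 had 9 UMIs over all cells kept, ADAMTS18 10, COL2A1, the cartilage collagen, 15, ADAMTS13, which cleaves von Willebrand factor, 33 and ADAMTS20 34. COL26A1 (42), ADAMTS15 (51), FBN3 (62) and ADAMTS14 (62) also stayed under 100 UMIs. None of these 9 passed the count minimum of a test, so whether classes differ in them was not tested under that minimum.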

How the data were processed

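Single-cell RNA-seq of lung tumours from 3 animals was analysed. The authors' deposited matrices hold whole-number UMI counts per gene and cell barcode, made with Cell Ranger 7.1.0 per the file headers and 8.0.0 per the submitters' processing notes; the genome build is not given in the sources used here. Cells with at least 1000 UMIs, 500 genes and under 20% of counts from 13 mitochondrial genes were kept (7929, 8891 and 7779). Scrublet's automatic threshold marked 1, 0 and 0 cells and so had not worked; cells scoring 0.2 or more were removed (149, 124 and 172). Clustering used scanpy 1.11.5 (2000 variable genes, 30 components, 20 neighbours, Leiden resolution 1), holding out 123 members and partner genes. Features without a symbol held 37.8%, 36.8% and 37.2% of counts and stayed in totals and tests. Summed counts per animal and class were tested with edgeR 4.0.16 (TMM, filterByExpr, quasi-likelihood, animal as block, since both classes come from the same animal), with DESeq2 1.42.0 as an alternative. Counts were also simulated for the IGF2/MMP3 comparison, with 187 of 11024 genes changed, the same dispersion for every gene and no difference between animals. Of these, 103 of 104 genes changed by a log2 of 2 and 25 of 83 changed by 1 were called, with 3 false calls. The simulation is simpler than the data, so it gives no error rate for the real calls. Statistics were given for up to 10 members in each direction per comparison and the highest member of each role; other members named were chosen after their values were seen. Members and lists were chosen with earlier results of these data known. Of the members, 1 is counted among the tested genes and is not reported here by name.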

Additional observations from a re-analysis of the deposited data

How the results depend on the processing

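In the 5 tested comparisons the number of members called stayed within 1.5 times under every alternative that could be run, except that at Leiden resolution 2 the mural-like comparison called 1 member instead of 14; fewer cells kept the mural name there. Without the replicate block, 35, 10, 27, 19 and 38 members were called in the IGF2/MMP3, mural-like, endothelial-like, mesothelial-like and epithelial-like comparisons, against 37, 14, 28, 26 and 39 with it. Leaving out 1 animal gave 34 to 39, 11 to 14, 26 to 28 and 38 to 40 members, and could not be done for mesothelial-like cells, which had 2 animals. Of 1113 values of 122 named fold changes, 1020 kept direction and call, 25 were uncalled both times but changed sign, 62 lost the call, 5 gained it and 1 reversed: COL15A1 in endothelial-like cells stood at -0.35 after thinning to 3000 UMIs (cause not tested). Counts over all features moved more: 5047 in the IGF2/MMP3 comparison, 3346 without the block and 2683 in thinned cells; 482, 265 without the block, 280 by DESeq2, 302 in thinned cells and 102 at resolution 2 in the mural-like one; 2145, 1286 by DESeq2 and 1356 in thinned cells in the endothelial-like one; 1685, 706 without the block, 527 by DESeq2 and 901 in thinned cells in the mesothelial-like one; and 4352, 2869 by DESeq2 and 2790 in thinned cells in the epithelial-like one. In the mural-like comparison the split was 203 higher and 279 lower, but 218 higher and 461 lower without the count filter and 158 higher and 364 lower in the joint fit, where the median of all features was -0.28 and -0.21. Against IGF2/MMP3 cells of animal 2, bone matrix-like cells had 14 members past 4-fold, 14 with members kept in the clustering or no count minimum, 15 at resolution 2 and 9 in thinned cells, where 29 members instead of 42 reached the minimum; alternatives to a test could not be run on 1 animal. Class depth limits the rare members.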

Other observations

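Some members were found in immune cells, of which T or NK-like and plasma-like cells were used above as a guide to the level that free RNA can reach. Macrophage-like cells were not part of that guide. COL11A2, a fibrillar collagen chain known from cartilage, had 56.9, 74.3 and 71.2 CPM in the T cell-like cluster led by CD40LG and IL7R and 66.4, 52.1 and 104 CPM in the cluster led by GZMA and NKG7. In the FOXP3 and TNFRSF4 cluster it had 8.13, 10.9 and 12.5 CPM, against 1.19, 2.38 and 2.49 CPM in IGF2/MMP3 cells and 2.05, 0.938 and 2.10 CPM in resident cells. Its level thus differed between lymphocyte clusters of the same libraries and was lower in both stromal classes in every animal. LAMB3 had 11.7, 22.2 and 25.1 CPM in the macrophage-like cluster led by FABP4 and TBXAS1. COL23A1 reached 188 CPM in a cluster led by KRT14 and SPINK5 that had 200 cells in animal 2 and 2 and 1 in animals 1 and 3, so the value comes from 1 animal. These values were noticed in the data and were not tested.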
